A study of Mus musculus with 27 samples.

Results

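Transcript counts of 35 genes of sugar metabolism and oxygen sensing were followed in 2 populations of mouse alveolar macrophages after a lung injury: glucose uptake and hexokinases (4 genes), upper glycolysis and its regulators (9), lower glycolysis (5), lactate and pyruvate handling (6), hypoxia regulators (4), the pentose phosphate pathway (6) and glycogen synthesis (1). The genes were taken as a list of symbols by their function, a list drawn up with earlier results of these data known, and all 35 were matched to 1 Ensembl identifier each among the 38124 genes counted. All 35 also passed the filter on low counts that left 13599 genes in the tests.

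The study compared 2 macrophage populations recovered from the airspaces of C57B/6 mice aged 8 to 14 weeks by bronchoalveolar lavage and separated by flow sorting. The recruited cells were sorted as CD11c-CD11b+ on days 3, 6, 9 and 12 after LPS. The resident cells were sorted as CD11c+CD11b- on the same days and also from untreated mice, called day 0. The injury was a single kind of exposure in all treated mice, 20 ng of lipopolysaccharide (LPS, a bacterial cell wall product) in 50 µL given into the trachea. This gave 9 groups of 3 libraries each, 27 poly(A) RNA libraries in all, sequenced on an Ion Proton instrument. The populations are defined by surface markers alone, so that recruited and resident are names of gates, and the recruited gate has no day 0 group.

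Glycolysis splits glucose into pyruvate in the cytosol and yields ATP without oxygen. Glucose enters through transporters such as GLUT1, hexokinases trap it by phosphorylation, phosphofructokinase commits it to the pathway under control of the PFKFB enzymes, and lactate dehydrogenase with the monocarboxylate transporters disposes of the pyruvate as lactate. The pentose phosphate pathway branches off after the hexokinase step and makes NADPH and ribose, and the transcription factor HIF-1, whose alpha subunit is marked for destruction by prolyl hydroxylases when oxygen is present, switches on many genes of glycolysis. Inflammatory macrophages are known for high glycolysis, whereas resident alveolar macrophages live in a glucose-poor, oxygen-rich airspace.

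HIF-1 binds DNA that holds the core ACGTG or GCGTG. The letters were looked up on both strands in the RefSeq promoter windows of build GRCm38.p6, each 250 bases before and 50 bases after a gene's start. All 35 genes had at least 1 window, 49 in all, and 40 of the 49 windows (81.6%) held a match, against 43.8% of all 32851 mouse windows. The median GC content was 61% in the windows of these genes and 52.7% in all windows, and a match is a description of letters, not a binding site. The 250 bases before the start are shown for 4 genes that were high in recruited cells on day 3 and for 1 pentose phosphate gene that was low in them, with every match in capitals. The palindrome CACGTG counts as a match on each strand.

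Bnip3, chr7:138909507-138909756 on the minus strand, held 5 matches in the stretch shown, and Ldha, chr7:46845554-46845803 on the plus strand, also held 5. Ldha has another start, whose 250 bases at chr7:46846832-46847081 are not shown and held 1 match. The other 3 genes held fewer, with 2 for Pgk1 at chrX:106186850-106187099 (plus strand), 1 for Egln3 at chr12:54203875-54204124 (minus strand) and 1 for Rpia at chr6:70792176-70792425 (minus strand).
Bnip3: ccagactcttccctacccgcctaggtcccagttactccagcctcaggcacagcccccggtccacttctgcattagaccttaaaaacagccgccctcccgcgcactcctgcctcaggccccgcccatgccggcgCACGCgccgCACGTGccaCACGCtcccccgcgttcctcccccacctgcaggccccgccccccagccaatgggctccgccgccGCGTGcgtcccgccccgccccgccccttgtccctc
Ldha: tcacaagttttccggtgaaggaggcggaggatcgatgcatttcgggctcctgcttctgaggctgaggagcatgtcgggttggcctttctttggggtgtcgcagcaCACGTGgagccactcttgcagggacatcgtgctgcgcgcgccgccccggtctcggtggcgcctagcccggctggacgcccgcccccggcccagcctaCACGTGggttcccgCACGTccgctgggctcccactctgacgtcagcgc
Pgk1: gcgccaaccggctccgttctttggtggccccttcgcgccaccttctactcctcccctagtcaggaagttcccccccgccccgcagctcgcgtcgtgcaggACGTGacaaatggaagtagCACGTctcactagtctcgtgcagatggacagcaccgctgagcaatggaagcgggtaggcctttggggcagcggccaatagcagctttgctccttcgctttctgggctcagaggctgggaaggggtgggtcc
Egln3: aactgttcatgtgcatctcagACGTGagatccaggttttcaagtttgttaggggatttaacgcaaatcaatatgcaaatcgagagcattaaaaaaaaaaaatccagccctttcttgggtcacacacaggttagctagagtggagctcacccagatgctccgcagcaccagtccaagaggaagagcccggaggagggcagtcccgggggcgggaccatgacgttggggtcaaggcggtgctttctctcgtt
Rpia: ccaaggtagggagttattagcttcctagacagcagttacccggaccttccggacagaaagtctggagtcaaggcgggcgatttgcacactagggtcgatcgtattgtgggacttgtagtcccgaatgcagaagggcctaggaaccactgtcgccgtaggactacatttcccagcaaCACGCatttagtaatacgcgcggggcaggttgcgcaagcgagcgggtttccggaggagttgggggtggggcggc
Matches were found in at least 1 window of all 6 lactate and pyruvate genes, all 4 hypoxia genes, all 5 genes of lower glycolysis and all 4 of the uptake step. They were also found for all 6 pentose phosphate genes, of which none was called higher in recruited cells on day 3. Thus 32 of the 35 genes held a match, and the 3 without one were Gpi1, Tpi1 and Gys1.

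Libraries held 11093216 to 18299674 counted reads, with a median of 14859352. The reads outside any gene made up 6.77% to 13% in 26 libraries and 26.5% in recruited day 6 replicate 2. Of the sort marker genes, Itgam, which encodes CD11b, lay apart between the gates. It ranged over 792 to 3780 CPM, the read count scaled to library size, in the recruited libraries and 5.06 to 514 CPM in the resident ones. Itgax, which encodes CD11c, ranged over 148 to 1350 CPM in recruited libraries and 1210 to 2350 CPM in resident ones. Recruited cells reached 1260 to 1350 CPM of Itgax on day 12, within the 1210 to 1620 CPM of resident cells on day 3. A set of 4 libraries stood apart from the others of their groups on many of the genes below: replicate 2 of day 9 and replicate 1 of day 12, in both populations. They carry numbers between 12 and 18 in the column names and had the lowest shares of reads outside any gene, and counts of calls are given without them. Recruited and resident libraries with the same day and replicate number deviated together, and a fit that pairs them is called the replicate block.

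**Figure D1:**
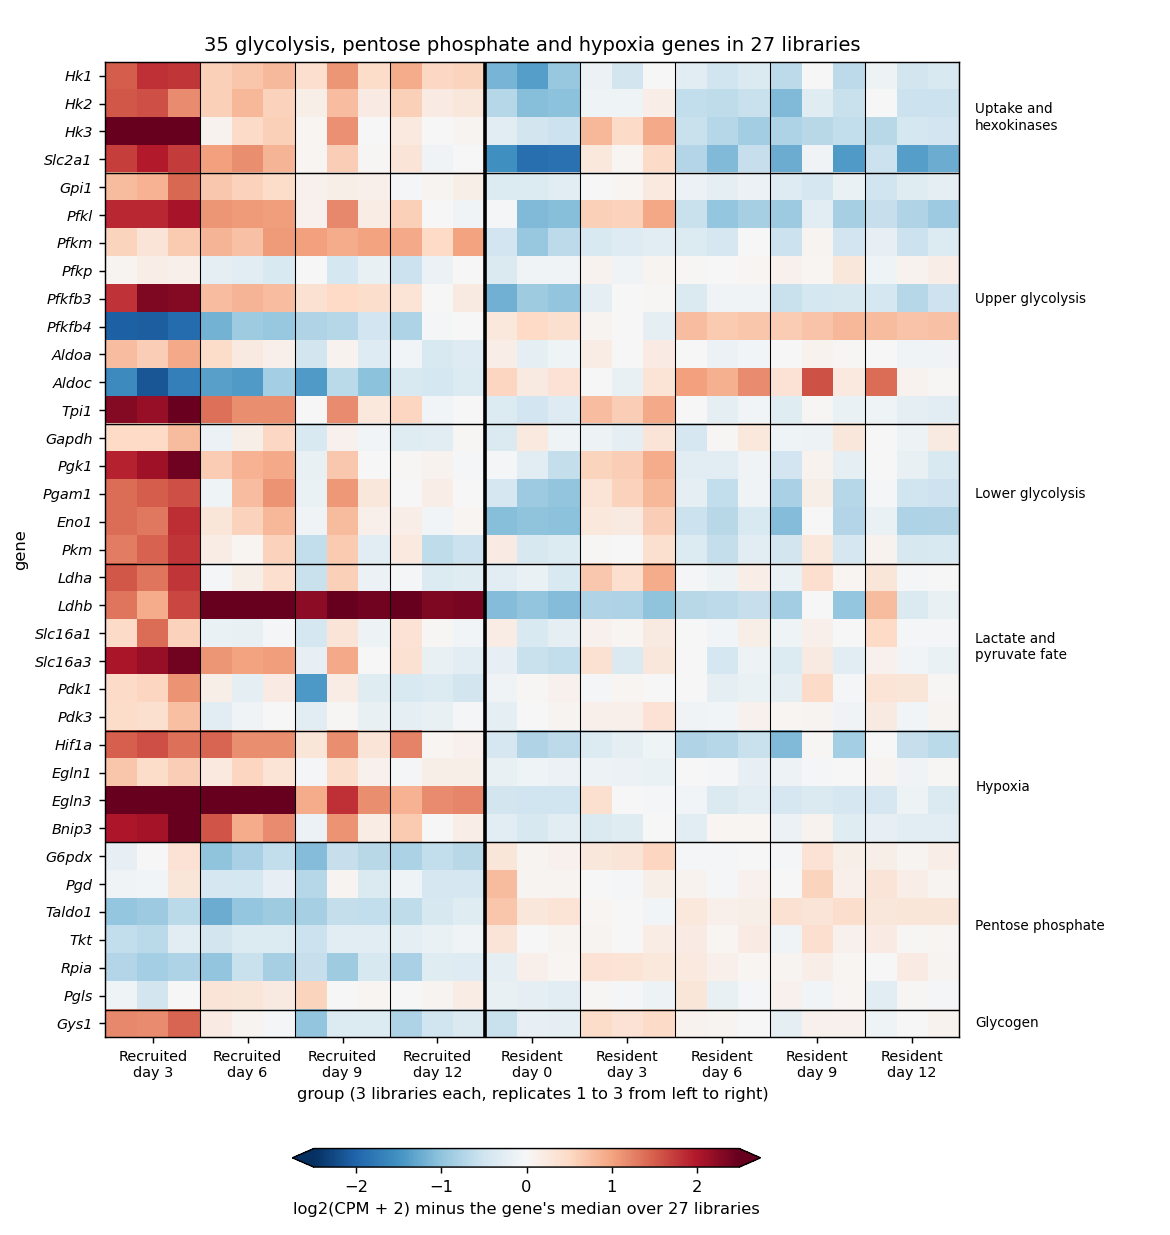
Level of each of the 35 genes (rows, grouped by role) in each of the 27 libraries (columns, recruited groups left of resident groups), as log2(CPM + 2) minus the gene's median over the 27 libraries. Recruited day 3 is the reddest block for the uptake, glycolysis, lactate and hypoxia genes, whereas pentose phosphate genes, Pfkfb4 and Aldoc are bluer in recruited than in resident libraries.

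On day 3 the recruited macrophages held more transcript of almost every step from glucose uptake to lactate export than resident macrophages of the same day. Of the 35 genes, 26 were higher and 5 were lower at an adjusted p under 0.05 (edgeR quasi-likelihood test, Benjamini-Hochberg adjustment over all 13599 genes). Among all genes tested, 23.2% were higher and 23.5% lower, so the higher calls stood well above the background and the lower ones below it. The higher genes were all 4 of uptake and hexokinases, all 5 of lower glycolysis, all 6 of lactate and pyruvate handling, all 4 hypoxia regulators, 6 of the 9 upper glycolysis genes and Gys1. The lower genes were Pfkfb4, Aldoc and the 3 pentose phosphate genes Rpia, Taldo1 and Tkt. The median log2 difference was 0.95 over the 35 genes and 0.05 over all genes. When scaled by library size alone, the median over all genes moved to -0.07 and the calls among these genes became 24 higher and 6 lower.

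In bulk samples a higher level can come from more cells of a type or from more RNA per cell, and these cannot be told apart. Neutrophil markers moved with the day 3 result: the 12 listed genes summed to 527 to 1090 CPM in recruited day 3 libraries and 231 to 274 CPM in resident day 3 libraries. Csf3r alone made up 314 to 535 CPM and S100a8 86.3 to 202 CPM of the recruited sum, while Ly6g had 0.0676 to 0.314 CPM. Mpo (0 to 0.0728 CPM) and Elane (0 CPM) are transcribed mainly in marrow precursors, so their levels do not bear on mature neutrophils. The endothelial and stromal list summed to 27.6 to 57.2 CPM in recruited day 3 libraries, mostly Kdr and Pecam1, and to 1.24 to 4.46 CPM in resident ones. The T and NK cell list summed to 54.6 to 103 CPM in recruited day 3 libraries, of which Il7r made up 49.7 to 94.2 CPM, and to 6.26 to 14.7 CPM in resident ones. The part of these cells in the result was not tested.

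Fewer genes differed between the populations on later days. The higher and lower calls were 18 and 7 on day 6, 14 and 9 on day 9, and 11 and 6 on day 12. With the replicate block they were 26 and 6 on day 3, 20 and 8 on day 6, 16 and 10 on day 9, and 13 and 10 on day 12. In the main fit the shares of all genes were 16.2% higher and 18.8% lower on day 6, 15.5% and 16.4% on day 9, and 12.6% and 14.7% on day 12. The shares under the block are not given here, so its counts have no background beside them. Lower glycolysis had 5, 3, 2 and 0 of 5 genes called higher on days 3, 6, 9 and 12, and the lactate and pyruvate genes had 6, 2, 1 and 1 of 6. On day 9 both lower glycolysis calls, Pgam1 and Eno1, were lost without recruited replicate 2 (adjusted p = 0.256 and 0.0867). All 4 uptake and hexokinase genes were called higher on each of the 4 days. The pentose phosphate genes were called lower in 3, 4, 5 and 3 of 6 cases. On day 9 the block added Pgk1 (log2 0.44; adjusted p = 0.0167), Bnip3 and Pdk1 (log2 -0.60; adjusted p = 0.00856). On day 12 it added Tpi1 (log2 0.36; adjusted p = 0.038), Pfkp (log2 -0.28; adjusted p = 0.0367), Eno1, Ldha, Bnip3, Pdk1 and Pgd, and Hk3 was lost. Without the 4 libraries that stood apart, the calls were 13 higher and 9 lower on day 9 and 11 higher and 4 lower on day 12. The shares of all genes for that fit are not given here either.

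Averaged over days 3 to 12, 19 genes were higher and 8 lower in recruited cells, where 30.3% and 30% of all genes were. With the replicate block Aldoa (log2 0.13; adjusted p = 0.0482) and Ldha (log2 0.15; adjusted p = 0.0138) were also higher on this average. The median log2 difference of the 35 genes was 0.55 on this average, and 0.95, 0.68, 0.24 and 0.08 on days 3, 6, 9 and 12. The summed level of the 35 genes was 15980 ± 1820 CPM in recruited cells on day 3 (SD, n = 3), 9184 ± 309 on day 6, 7611 ± 1910 on day 9 and 7184 ± 714 on day 12. In resident cells it was 7519 ± 955 CPM on day 0, 9023 ± 781 on day 3, 7545 ± 401 on day 6, 8035 ± 1110 on day 9 and 7776 ± 598 on day 12. The recruited day 3 group was therefore alone in its range, 14690 to 18060 CPM, and all other libraries summed to 9870 CPM or less.

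**Figure D2:**
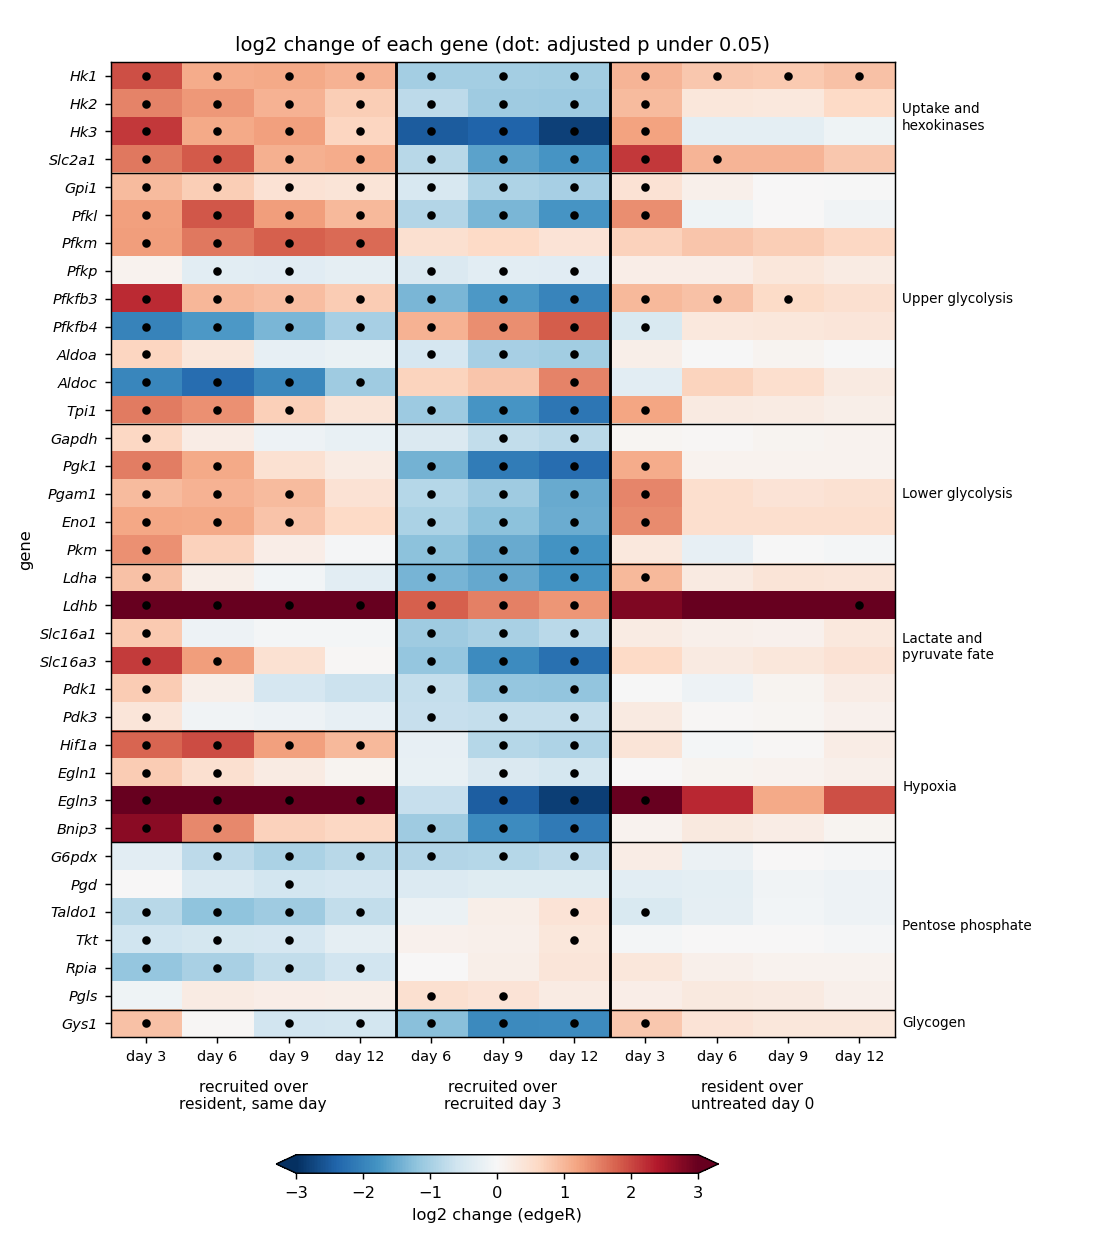
log2 change (edgeR) of each of the 35 genes (rows) for recruited over resident cells on the same day, recruited cells over recruited day 3, and resident cells over untreated resident cells (columns), with a dot where the adjusted p was under 0.05. On day 3 recruited cells held 26 genes higher than resident cells, and 26 genes were lower on day 12 than on day 3 in recruited cells, whereas only 2 genes were called in resident cells on day 12 against day 0.

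All 4 genes of glucose uptake and its first phosphorylation were called higher in recruited than in resident cells on each day, as were Gpi1, Pfkl, Pfkm, Pfkfb3, Ldhb, Hif1a and Egln3 of other steps. Slc2a1, which encodes the basal glucose transporter GLUT1, had 295, 353 and 298 CPM in recruited day 3 libraries, against 105, 90.7 and 122 CPM in resident day 3 libraries and 28.9, 22.1 and 22.3 CPM in untreated resident libraries. The recruited libraries did not overlap with the resident ones, and the day 3 resident libraries did not overlap with the untreated ones. On the log2 scale the difference between populations was 1.57 ± 0.28 (SE; adjusted p = 0.000106) on day 3 and 1.12 ± 0.28 (SE; adjusted p = 0.00527) on day 12. In resident cells Slc2a1 rose by 2.11 ± 0.29 (SE; adjusted p = 2.88e-05) on day 3 against day 0. On day 12 it had 109, 82.2 and 87.2 CPM in recruited libraries and 59.9, 32.2 and 35.8 CPM in resident libraries, where resident replicate 1 was the highest of its group.

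Among the hexokinases, Hk3, the isoenzyme typical of myeloid cells, stood out on day 3 with 626, 902 and 655 CPM in recruited cells, against 175, 136 and 189 CPM in resident cells. By day 12 it had fallen to 115, 97.2 and 102 CPM in recruited cells, with 59.6, 71.2 and 69.3 CPM in resident cells and 80.3, 70.1 and 66.5 CPM in untreated ones. The groups did not overlap on either day, although the gap was far smaller on day 12. The log2 difference between populations was 2.13 ± 0.23 (SE) on day 3 and 0.65 ± 0.22 (SE; adjusted p = 0.0328) on day 12, and the later call was lost with the replicate block (adjusted p = 0.0525) and without 5 of the 6 single libraries of that day (0.0594 to 0.0993). Within recruited cells Hk3 was lower, with a log2 change of -2.79 ± 0.24 (SE; adjusted p = 5.16e-09), on day 12 than on day 3.

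Hk1, the housekeeping isoenzyme bound to mitochondria, had 164, 203 and 198 CPM in recruited and 50.3, 40.5 and 56.2 CPM in resident cells on day 3, against 23.9, 20.5 and 28.3 CPM in untreated resident cells. It kept 109, 81.5 and 83.5 CPM in recruited and 51.1, 40.2 and 42.8 CPM in resident cells on day 12. Hk1 was the only 1 of the 35 genes called in resident cells on all 4 days against day 0, with log2 changes of 1.01, 0.81, 0.80 and 0.88. Its calls on days 6, 9 and 12 were lost without untreated replicate 1 (adjusted p = 0.06, 0.103 and 0.0975) or replicate 2 (0.0757, 0.116 and 0.119). Without resident day 9 replicate 2 the Hk1 change on day 9 was 0.52 (adjusted p = 0.189). Hk2, the inducible isoenzyme and a known HIF-1 target, had 374, 389.5 and 292 CPM in recruited and 118, 118 and 143 CPM in resident cells on day 3. Its log2 difference between populations was 1.48 ± 0.20 (SE; adjusted p = 1.82e-06) on day 3 and 0.73 ± 0.19 (SE; adjusted p = 0.0069) on day 12. Shares of isoenzymes were taken per length, here and below all annotated exon bases of a gene and not the length of an expressed transcript. Hk3 held 70.7% ± 2.9 of the summed level of the 3 hexokinases in recruited cells on day 3 and 62.6% ± 2.4 in resident cells on day 3. On day 12 it held 42.7% ± 1.6 in recruited and 45.5% ± 7.2 in resident cells, and in untreated resident cells 58.7% ± 1.8 (SD, n = 3 each). With no length correction Hk3 held 57.1% in recruited and 48.6% in resident cells on day 3, and 44.7% in untreated ones.

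At the commitment step 1 isoenzyme was higher in recruited cells and the other lower. PFKFB3 and PFKFB4 both set the level of fructose-2,6-bisphosphate, the strongest activator of phosphofructokinase, and PFKFB3 is the form with the highest kinase activity. Pfkfb3 had 362, 523 and 508 CPM in recruited cells and 86.8, 102 and 104 CPM in resident cells on day 3, with 43.6, 54.3 and 50.2 CPM in untreated resident cells. Pfkfb4 ran the other way, with 49.99, 49.6 and 54.3 CPM in recruited cells and 224, 210.2 and 181 CPM in resident cells on day 3, and 257, 303 and 283 CPM in untreated ones. For both genes, the recruited and resident libraries did not overlap on any of the 4 days. The log2 difference on day 3 was 2.25 ± 0.13 (SE; adjusted p = 1.87e-11) for Pfkfb3 and -1.999 ± 0.15 (SE; adjusted p = 4.85e-10) for Pfkfb4.

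Both differences shrank with time without closing. On days 3, 6, 9 and 12 the log2 difference of Pfkfb3 was 2.25, 0.99, 0.92 and 0.77, and that of Pfkfb4 was -1.999, -1.72, -1.38 and -0.99. In recruited cells Pfkfb3 was lower, with a log2 change of -1.98 ± 0.13 (SE; adjusted p = 1.07e-10), on day 12 than on day 3, and Pfkfb4 was higher by 1.82 ± 0.15 (SE; adjusted p = 1.94e-09). Per length, Pfkfb3 held 85.1% ± 2.5, 52.3% ± 2.1, 39.9% ± 2.5 and 30.4% ± 8.6 of the sum of both in recruited cells on days 3, 6, 9 and 12. With no length correction these shares were 89.8%, 62.9%, 50.7% and 40.1%. In resident cells Pfkfb3 held, per length, 10.2% ± 0.28, 23.6% ± 3.5, 14.4% ± 1.8, 11.8% ± 0.16 and 11% ± 0.81 on days 0, 3, 6, 9 and 12 (SD, n = 3 each). In resident cells on day 3 against day 0, Pfkfb3 rose by 0.98 ± 0.13 (SE; adjusted p = 8.44e-06) and Pfkfb4 fell, with a log2 change of -0.45 ± 0.14 (SE; adjusted p = 0.0234). The Pfkfb4 call was lost without untreated replicates 2 or 3 (adjusted p = 0.0944 and 0.063) or resident day 3 replicate 3 (0.129).

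Of the phosphofructokinase subunits, the liver form Pfkl had 467, 465 and 526 CPM in recruited cells and 189, 186 and 246 CPM in resident cells on day 3. Untreated resident cells had 122, 57.1 and 58.3 CPM, with replicate 1 well above the other two. The Pfkl difference of 0.96 ± 0.29 (SE; adjusted p = 0.0149) on day 12 was lost without recruited replicate 1, at 0.73 (adjusted p = 0.0935). The muscle form Pfkm was scarce, with 6.55, 5.26 and 7.14 CPM in recruited cells and 2.43, 2.67 and 2.84 CPM in resident cells on day 3. Its groups did not overlap on any day, and its log2 difference was 1.25 ± 0.28 (SE) on day 3 and 1.71 ± 0.28 (SE; adjusted p = 6.72e-05) on day 12. The platelet form Pfkp was near the same level in every group, 154 to 251 CPM in recruited libraries and 174 to 273 CPM in resident ones. Its difference was called lower in recruited cells on days 6 and 9 (log2 -0.33 and -0.34), and both calls were lost when single libraries were left out. Pfkl held 78.3% ± 0.99 of the 3 subunits per length in recruited cells on day 3 and 63.3% ± 3.1 in resident cells on day 3, against 42.4% ± 13 in untreated resident cells. With no length correction these shares were 66%, 47.1% and 28%.

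The rest of upper glycolysis moved less evenly. Tpi1, which encodes triose phosphate isomerase, was higher in recruited cells by 1.55 ± 0.21 (SE; adjusted p = 2.38e-06) on day 3 and by 0.72 ± 0.21 (SE; adjusted p = 0.0093) on day 9. The day 9 call rested on recruited replicate 2: without it the log2 difference was 0.28 (adjusted p = 0.19). Gpi1, the isomerase between the hexokinase and phosphofructokinase steps, was higher by 0.96 ± 0.13 (SE; adjusted p = 2.35e-06) on day 3, and its libraries did not overlap between populations on any day. Its day 9 call (log2 0.43) was lost without resident replicate 2 (adjusted p = 0.0523). The day 12 call (log2 0.39) was lost when single libraries were left out (adjusted p of 0.0595 to 0.0989). Aldoa, the main aldolase, held the most reads of the 35 genes over all 27 libraries together, though not in each group. It was called higher on day 3 alone, by 0.65 ± 0.14 (SE; adjusted p = 0.000404), and with the replicate block also on day 6 (log2 0.34; adjusted p = 0.0208). Aldoc, a minor aldolase, was lower in recruited cells on each day, with log2 differences of -1.96, -2.28, -1.93 and -1.06. Its day 12 call rested on resident replicate 1, one of the libraries that stood apart: without it the log2 difference was -0.43 (adjusted p = 0.36).

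**Figure D3:**
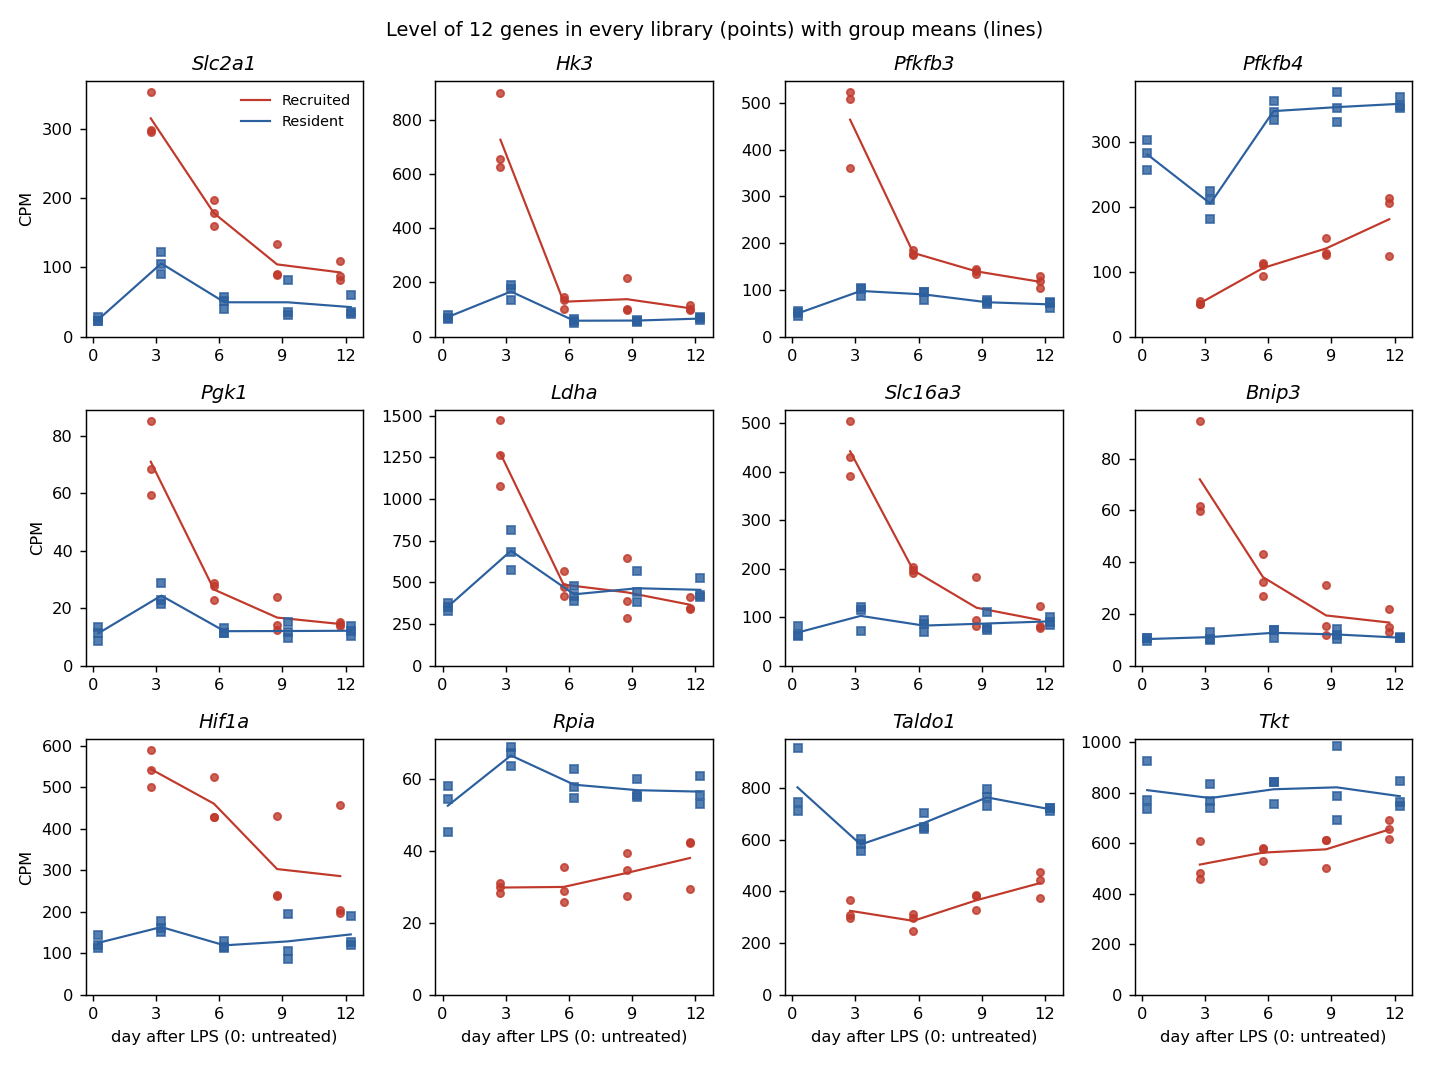
CPM of 12 of the genes (vertical axes, from 0) against day after LPS (horizontal axes, day 0 being untreated), with a point for each library and a line through the group means, recruited cells drawn slightly left of resident cells. Slc2a1, Hk3, Pfkfb3, Pgk1, Ldha, Slc16a3 and Bnip3 were highest in recruited cells on day 3 and lower from day 6 on, whereas Pfkfb4, Rpia, Taldo1 and Tkt were lower in recruited than in resident cells.

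All 5 genes of lower glycolysis were called higher in recruited cells on day 3, and none was called on day 12 in the main fit. With the replicate block Eno1 was called higher on day 12, as given below. Pgk1, which encodes phosphoglycerate kinase, the first ATP-forming enzyme of the pathway, had 59.4, 68.4 and 85.1 CPM in recruited cells and 21.6, 22.8 and 28.8 CPM in resident cells on day 3. On day 12 it had 14.5, 15.2 and 13.8 CPM in recruited and 13.9, 12.2 and 10.3 CPM in resident cells, against 13.6, 11.4 and 8.75 CPM in untreated ones. The day 3 groups did not overlap, and on day 12 they did. Its log2 difference was 1.54 ± 0.21 (SE; adjusted p = 2.62e-06) on day 3 and 0.25 ± 0.22 (SE; adjusted p = 0.427) on day 12, and in recruited cells it was lower, with a log2 change of -2.29 ± 0.22 (SE; adjusted p = 2.38e-08), on day 12 than on day 3.

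Pkm, which encodes the muscle-type pyruvate kinase of macrophages, had 2524, 2865 and 3567 CPM in recruited cells and 1061, 1033 and 1355 CPM in resident cells on day 3, with 1187, 783 and 817 CPM in untreated cells. Its difference of 1.38 ± 0.29 (SE; adjusted p = 0.000531) on day 3 was followed by 0.68 ± 0.29 (SE; adjusted p = 0.0734) on day 6, which was called with the replicate block (adjusted p = 0.00119). Eno1, the main enolase, had 902, 854 and 1242 CPM in recruited and 410.5, 402 and 525 CPM in resident cells on day 3, against 161, 169.6 and 167 CPM in untreated ones. Eno1 was higher by 1.16 ± 0.24 (SE; adjusted p = 0.000437) on day 3, and its day 12 difference of 0.59 ± 0.24 (SE; adjusted p = 0.0752) was called with the replicate block (adjusted p = 0.000178). Recruited and resident libraries of Eno1 did not overlap on day 3 or on day 12.

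Pgam1, phosphoglycerate mutase, had 70.7, 77.3 and 82.7 CPM in recruited and 32.95, 39.04 and 47.5 CPM in resident cells on day 3, a difference of 0.95 ± 0.32 (SE; adjusted p = 0.0204). The call was lost without any of 3 single libraries, with adjusted p of 0.0841, 0.0554 and 0.0564 without resident replicates 1 and 2 and recruited replicate 3. Gapdh, the next enzyme upstream of Pgk1, showed the smallest difference of the 5, 0.62 ± 0.21 (SE; adjusted p = 0.0202), likewise lost without single libraries. It had 51.5, 51.5 and 62.9 CPM in recruited cells and 32.7, 29.9 and 45.2 CPM in resident cells on day 3. In resident cells Eno1, Pgam1 and Pgk1 rose on day 3 against day 0, by 1.43, 1.46 and 1.12 on the log2 scale, and Gapdh and Pkm were not called.

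The levels of these 5 genes are uncertain because parts of their transcripts also occur in transcripts of other genes. Of all 50-base words of the transcripts, 53.9% in Pgk1, 36.2% in Pgam1, 26% in Eno1, 25.8% in Pkm and 25.1% in Gapdh also occur in transcripts of other genes, 223 of them for Gapdh. The deposited tables set aside 17.4% to 22.8% of reads as not uniquely aligned, and Gapdh held 14976 counts in the 27 libraries against 634060 for Aldoa. The same applies to Bnip3, with 47.2% of its words shared. Genes that overlap the same place count among these other genes. Exons of Gm49759 cover 15.3% of the exon length of Pkm, and those of Gm45507 cover 22.3% of that of Bnip3.

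Of the lactate and pyruvate genes, 4 were called between populations on day 3 alone, Slc16a3 on days 3 and 6, and Ldhb on all 4 days. Ldha, the lactate-forming subunit of lactate dehydrogenase, had 1265, 1081 and 1475 CPM in recruited and 681, 575 and 813 CPM in resident cells on day 3, against 354, 379 and 329 CPM in untreated ones. On day 12 it had 414, 339 and 346 CPM in recruited cells and 525, 413 and 427 CPM in resident cells. In resident cells Ldha was thus higher on day 3 than on day 0, by 0.96 ± 0.21 (SE; adjusted p = 0.00234). Recruited cells, which have no day 0 group, held more Ldha than resident cells on day 3, by 0.88 ± 0.21 (SE; adjusted p = 0.00167). Within recruited cells it was lower, with a log2 change of -1.80 ± 0.22 (SE; adjusted p = 8.5e-07), on day 12 than on day 3, and the day 12 difference of -0.31 ± 0.21 (SE; adjusted p = 0.307) was called lower with the replicate block (adjusted p = 0.024).

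Ldhb, the heart-type subunit, which favours the return of lactate to pyruvate, was almost absent from resident cells. It had 8.71, 6.13 and 11.6 CPM in recruited cells and 0.525, 0.5 and 0.118 CPM in resident cells on day 3, and 23.5, 29.5 and 38.02 CPM in recruited and 0.626, 0.717 and 0.838 CPM in resident cells on day 6. On day 12 the values were 27.5, 19.3 and 20.02 CPM in recruited and 5.35, 1.32 and 1.74 CPM in resident cells. The populations did not overlap on any day, with log2 differences of 4.56, 5.36, 4.81 and 2.98 and a largest adjusted p of 0.000242. Alone among the lactate genes Ldhb was higher in recruited cells on day 6 than on day 3, by 1.78 ± 0.49 (SE; adjusted p = 0.00792). The untreated resident libraries held 2 Ldhb reads in all and the resident day 12 libraries 133, a ratio of 62.7 with a 95% interval of 17 to 523 that covers counting error only. Resident day 12 replicate 1 held 84 of those 133 reads. Per length, Ldhb made up 1.41% ± 0.22, 11.5% ± 0.89, 10.9% ± 0.80 and 11.3% ± 0.86 of both subunits in recruited cells on days 3, 6, 9 and 12, against at most 1.21% ± 0.78 in resident cells, reached on day 12. With no length correction Ldhb made up 0.676% and 5.82% in recruited cells on days 3 and 6, and 0.577% in resident cells on day 12.

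Slc16a3, the monocarboxylate transporter MCT4 that exports lactate, had 391.7, 430.5 and 505 CPM in recruited and 122, 72.4 and 114 CPM in resident cells on day 3. Its log2 difference was 2.10, 1.25, 0.46 and 0.04 on days 3, 6, 9 and 12, of which the first pair was called, with adjusted p of 8.71e-07 and 0.000484. Slc16a1, the transporter MCT1, was called higher on day 3, by 0.79 ± 0.22 (SE; adjusted p = 0.0056). The call rested on recruited replicate 2: the gene had 37.5, 72.3 and 40.2 CPM in recruited and 28.4, 27.2 and 30.96 CPM in resident cells. Without that library its log2 difference was 0.43 (adjusted p = 0.104). The kinases Pdk1 and Pdk3, which hold pyruvate dehydrogenase inactive, were higher by 0.77 ± 0.27 (SE; adjusted p = 0.023) and 0.36 ± 0.12 (SE; adjusted p = 0.0211) on day 3. Pdk1 had 72.3, 75.6 and 114 CPM in recruited and 49.6, 53.4 and 50.9 CPM in resident cells. Both calls were lost without recruited replicate 3 (adjusted p = 0.149 for Pdk1 and 0.157 for Pdk3), and also without resident replicate 1 (0.0657 and 0.0794). On day 12 the difference of Pdk1 was -0.65 ± 0.27 (SE; adjusted p = 0.0798), called lower with the replicate block (adjusted p = 0.00638).

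**Figure D4:**
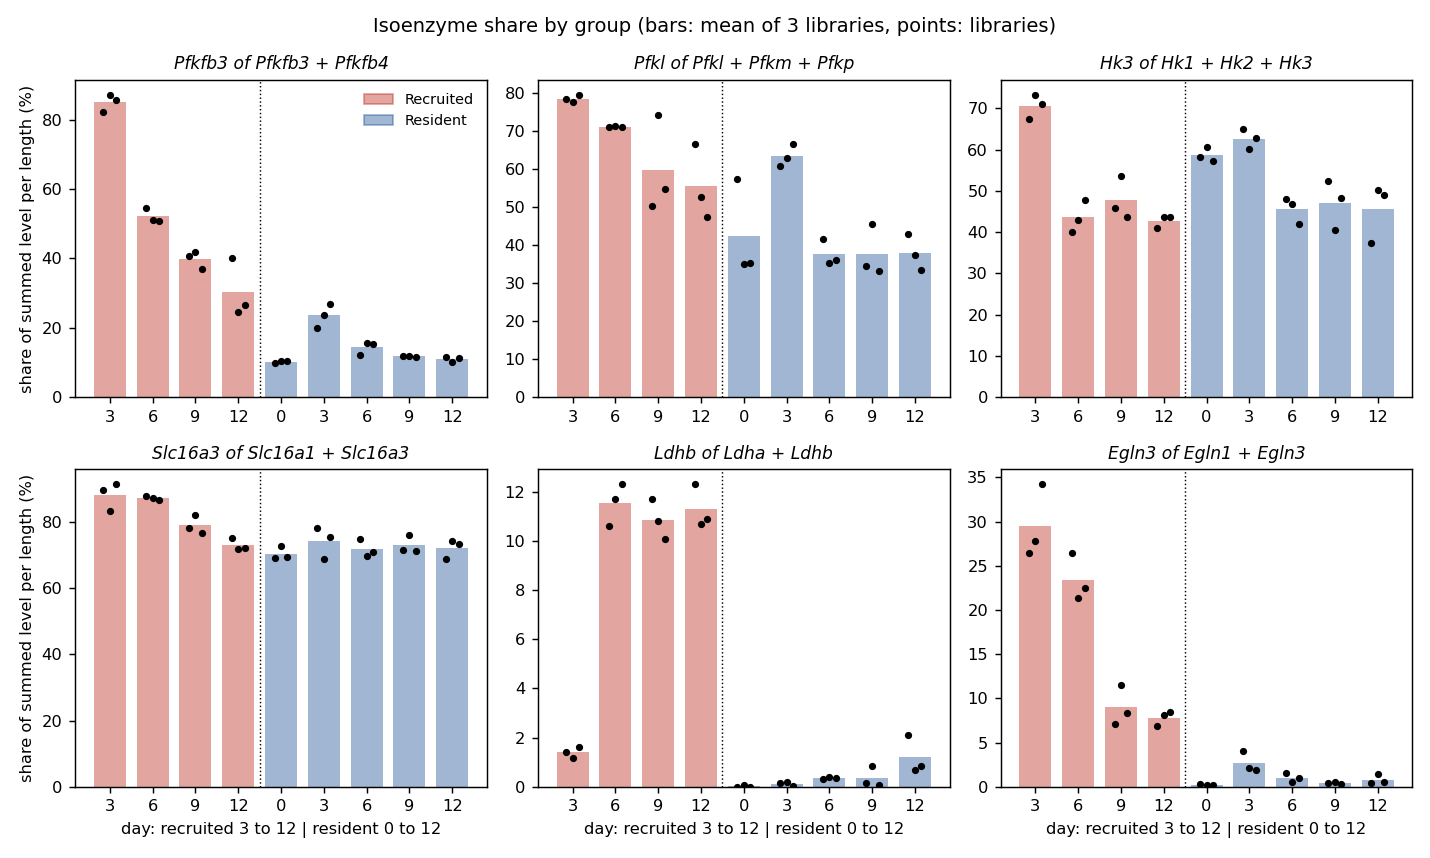
Share of 1 isoenzyme in the summed level of its family per annotated exon length (vertical axes, percent), by group (horizontal axes, recruited days 3 to 12 left of resident days 0 to 12), with bars for the mean of 3 libraries and points for libraries. The size of the shares depends on this length correction. Pfkfb3 falls in recruited cells over the days, from a mean of 85.1% on day 3 through 52.3% and 39.9% to 30.4%, and Ldhb holds 11.5%, 10.9% and 11.3% in recruited cells on days 6, 9 and 12.

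The hypoxia regulators were all higher in recruited cells on days 3 and 6. Hif1a, the oxygen-regulated subunit of HIF-1, had 541, 591 and 501 CPM in recruited and 150.5, 162 and 178 CPM in resident cells on day 3, against 143, 112 and 120.1 CPM in untreated ones. On day 12 it had 456, 197 and 205 CPM in recruited and 191, 127 and 119 CPM in resident cells. Groups did not overlap on any of the 4 days, but the high recruited value on day 12 is 1 library. The log2 difference was 1.74 ± 0.31 (SE; adjusted p = 8.71e-05) on day 3 and 0.97 ± 0.30 (SE; adjusted p = 0.0198) on day 12, where without recruited replicate 1 it was 0.48 (adjusted p = 0.229).

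Egln3 encodes PHD3, a prolyl hydroxylase that acts on HIF-1 alpha and is itself induced by HIF. It had 27.6, 25.1 and 37.7 CPM in recruited and 1.84, 0.918 and 0.829 CPM in resident cells on day 3, with 4 reads in all in the untreated libraries. On days 6 and 12 recruited cells had 20.1, 18.8 and 17.4 CPM and 3.32, 4.61 and 4.76 CPM, against 0.765, 0.261 and 0.387 CPM and 0.191, 0.662 and 0.28 CPM in resident cells. Populations did not overlap on any day, and the log2 difference was 4.64 ± 0.35 (SE; adjusted p = 7.08e-10) on day 3 and 3.52 ± 0.41 (SE; adjusted p = 1.43e-06) on day 12. In resident cells the day 3 libraries held 53 reads against those 4, a ratio of 13.4 with a 95% counting interval of 4.92 to 50.9. Egln1, which encodes PHD2, the main oxygen sensor, differed less, with 104, 87.7 and 98.2 CPM in recruited and 58.03, 56.7 and 56.3 CPM in resident cells on day 3 and a log2 difference of 0.76 ± 0.11 (SE; adjusted p = 4.53e-06). Per length, Egln3 made up 29.5% ± 4.1 of both in recruited cells on day 3 and 2.73% ± 1.2 in resident cells on day 3, against 0.213% ± 0.088 in untreated ones.

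Bnip3, a HIF target that drives removal of mitochondria, had 59.7, 61.9 and 94.5 CPM in recruited and 9.78, 10.3 and 13.1 CPM in resident cells on day 3, with 10.7, 9.501 and 10.7 CPM in untreated ones. Bnip3 was not called in resident cells on any day against day 0, and the largest of those log2 changes was 0.30 ± 0.28 (SE; adjusted p = 0.621) on day 6. In recruited cells it had 43.3, 27.02 and 32.4 CPM on day 6 and 21.8, 13.2 and 15.01 CPM on day 12. The log2 difference between populations was 2.70, 1.43, 0.68 and 0.62 over the days, called on days 3 and 6 and, with the replicate block, on days 9 and 12 (adjusted p = 0.0283 and 0.0313).

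Of the 6 pentose phosphate genes, none was called higher in recruited cells on any day, and 3, 4, 5 and 3 were called lower on days 3, 6, 9 and 12. On the average of the days, 5 of the 6 were lower and none was higher, against 30% of all genes called lower, a comparison that rests on few genes. Rpia, ribose-5-phosphate isomerase, had 31.1, 28.4 and 30.1 CPM in recruited and 69.1, 67.3 and 63.7 CPM in resident cells on day 3, and 29.6, 42.6 and 42.2 CPM in recruited and 53.04, 61.1 and 55.7 CPM in resident cells on day 12. No day showed an overlap between populations. Its log2 difference narrowed, with -1.16 ± 0.14 (SE; adjusted p = 5.52e-07) on day 3 and -0.57 ± 0.14 (SE; adjusted p = 0.00368) on day 12.

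Taldo1, transaldolase of the non-oxidative branch, had 297, 308 and 368 CPM in recruited and 602, 584 and 555 CPM in resident cells on day 3, against 952, 709 and 744 CPM in untreated ones. Its difference was -0.84 ± 0.12 (SE; adjusted p = 6.08e-06) on day 3 and -0.73 ± 0.12 (SE; adjusted p = 9.16e-05) on day 12, again with no overlap on any day. It also fell in resident cells on day 3, with a log2 change of -0.47 ± 0.12 (SE; adjusted p = 0.00759), and was the only pentose phosphate gene called in resident cells. Without untreated replicate 1 this change was -0.32 (adjusted p = 0.0637). Tkt, transketolase, had 481, 456 and 608 CPM in recruited and 765, 738 and 833 CPM in resident cells on day 3, a difference of -0.60 ± 0.13 (SE; adjusted p = 0.000669). Taldo1 and Tkt were higher in recruited cells on day 12 than on day 3, by 0.41 ± 0.12 (SE; adjusted p = 0.0096) and 0.34 ± 0.13 (SE; adjusted p = 0.0401). The Taldo1 call was lost without recruited day 12 replicate 3 (adjusted p = 0.0567) and the Tkt call without any of 4 single libraries (0.08 to 0.174).

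The oxidative branch is made up of G6pdx, Pgls and Pgd. G6pdx, glucose-6-phosphate dehydrogenase, the NADPH-forming entry step, had 219, 256 and 326 CPM in recruited and 310.2, 319 and 371 CPM in resident cells on day 3, which overlapped. Its difference of -0.32 ± 0.14 (SE; adjusted p = 0.0709) was called with the replicate block (adjusted p = 0.00664). On day 12 it had 146, 166 and 156 CPM in recruited and 281, 268 and 286 CPM in resident cells, with no overlap and a difference of -0.83 ± 0.14 (SE; adjusted p = 0.000132). Thus G6pdx, unlike Rpia and Taldo1, was lower in recruited cells on day 12 than on day 3, with a log2 change of -0.77 ± 0.14 (SE; adjusted p = 0.000157). Pgd, the second dehydrogenase, ranged over 367 to 743 CPM in recruited libraries and 591 to 1050 CPM in resident ones and was called lower on day 9 alone, with a log2 difference of -0.54 ± 0.20 (SE; adjusted p = 0.0364). With the replicate block Pgd was also called lower on days 6 and 12 (adjusted p = 0.0387 and 0.0135), and the day 9 call was lost when single libraries were left out. Pgls, the lactonase between them, was not called between populations on any day, with log2 differences of -0.13, 0.26, 0.20 and 0.17. Of the exons of G6pdx and Pgls, 13.6% and 20.6% of the length overlaps Ikbkg on the other strand and Fam129c on the same strand.

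Glycogen synthase, Gys1, crossed over. It had 92.7, 91.8 and 111 CPM in recruited and 54.4, 51.1 and 55.6 CPM in resident cells on day 3, and 22.3, 27.1 and 30.2 CPM in recruited and 36.2, 39.2 and 41.6 CPM in resident cells on day 12, against 26.1, 33.6 and 32.9 CPM in untreated ones. The day 3 groups lay apart with recruited cells above, and the day 12 groups lay apart with recruited cells below. The log2 difference was 0.88 ± 0.15 (SE; adjusted p = 5.42e-05) on day 3, -0.57 ± 0.15 (SE; adjusted p = 0.00615) on day 9 and -0.55 ± 0.15 (SE; adjusted p = 0.00941) on day 12. The day 9 and day 12 calls were lost without recruited replicate 1 of the day (adjusted p = 0.0527 and 0.0765). Its exons overlap those of Ruvbl2 on the other strand over 6.47% of their length.

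Within recruited cells, the change after day 3 was a broad fall. Of the 35 genes, 22 were lower and 3 higher on day 6 than on day 3, 26 lower and 3 higher on day 9, and 26 lower and 5 higher on day 12. Among all genes the shares were 16.8% lower and 15.1% higher on day 6, 18% and 18.2% on day 9, and 19.5% and 19.8% on day 12. The median log2 change of the 35 genes was -0.71, -1 and -1.04 on days 6, 9 and 12, and that of all genes was 0.01, 0.03 and 0.02. Scaled by library size alone, the median of all genes moved to 0.15 on day 9 and 0.11 on day 12, with 25 of the 35 genes lower and 5 higher on day 9, and 25 lower and 6 higher on day 12. Over any later day, 31 of the 35 genes were called, against 37.5% of all genes. All 9 genes of uptake and lower glycolysis were lower on days 9 and 12. Without single libraries, the day 9 calls of Gapdh (adjusted p = 0.0559) and Pgam1 (0.0844 and 0.0611) were lost. The lower calls of Hif1a and Pfkp on days 9 and 12 and of Slc16a1 on day 12 were lost likewise. So were those of Slc2a1, Gpi1, Pfkl, Pgam1 and Pdk1 on day 6. The genes higher on day 12 were Pfkfb4, Aldoc, Ldhb, Taldo1 and Tkt. Of these, the calls of Taldo1, Tkt and Ldhb were lost when single libraries were left out, Ldhb with adjusted p of 0.0515 to 0.127.

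In resident cells most calls against untreated cells fell on day 3. On day 3, 14 of the 35 genes were higher and 2 lower than in untreated cells, where 13.3% of all genes were higher and 10.5% lower. The 14 were all 4 uptake and hexokinase genes, Gpi1, Pfkl, Pfkfb3, Tpi1, Pgk1, Pgam1, Eno1, Ldha, Egln3 and Gys1, and the 2 were Pfkfb4 and Taldo1. On days 6, 9 and 12 the counts were 3, 2 and 2 higher and none lower, against 3.77%, 1.61% and 1.1% of all genes higher and 2.65%, 1.88% and 0.206% lower. The counts on days 6, 9 and 12 rest on single libraries: they were 1, 0 and 0 without untreated replicate 1 and 1, 1 and 1 without untreated replicate 2. The median log2 change of the 35 genes was 0.38 on day 3 and 0.20, 0.23 and 0.21 on days 6, 9 and 12, and that of all genes lay between 0.00 and 0.02. Over any day, 17 of the 35 genes were called, against 26.1% of all genes. Markers in the resident libraries moved with day 3 as well: Itgam reached 329 to 514 CPM on day 3, against 5.06 to 10.3 CPM on day 0, and the neutrophil list summed to 231 to 274 CPM, against 117 to 140 CPM. The eosinophil list, of which only Ear6 was detected and Epx was at 0, summed to 53.1 to 124 CPM, against 3.34 to 6.23 CPM. Other lists rose from day 0 but were not highest on day 3 alone. The T and NK cell list summed to 0.46 to 1.22 CPM on day 0, 6.26 to 14.7 CPM on day 3 and 4.63 to 15.2 CPM on day 6. The monocyte list without Chil3 summed to 1200 to 1970 CPM on day 0 and 2680 to 3700 CPM on day 3. It was higher still later, with 8110 to 8450, 4440 to 11600 and 4500 to 10100 CPM on days 6, 9 and 12. Among the neutrophil genes, S100a8 and S100a9 had 52.3 to 72.5 and 43.4 to 52.4 CPM on day 3 and Ly6g at most 0.197 CPM. Their part in the result was not tested.

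Whether the gap between populations itself changed with the day was tested as an interaction. It was called for 12 of the 35 genes, against 10.7% of all genes: Hk3, Pfkfb3, Pfkfb4, Aldoa, Tpi1, Pgk1, Ldha, Slc16a3, Pdk1, Egln1, Bnip3 and Gys1. For 11 of them the difference on day 12 was nearer to 0 than on day 3 or on the other side of it, and for Gys1 it was called on both sides. The calls of Ldha and Pdk1 were lost without most single libraries, with adjusted p of up to 0.143 and 0.135. That of Tpi1 was lost without any of 6 single libraries (0.0509 to 0.065) and that of Egln1 without any of 3 (0.0511 to 0.0629) or with scaling by library size alone (0.0768). Hk3 was lost without replicate 2 of resident or of recruited day 3 (0.068 and 0.0743), and Pgk1 without recruited day 3 replicate 3 (0.0507). With the replicate block 22 genes were called, Hk1, Hk2, Gpi1, Aldoc, Gapdh, Eno1, Pkm, Hif1a, Pdk3 and G6pdx being added. Without the 4 libraries that stood apart 19 genes were called, with Hk1, Aldoc, Pkm, Ldhb, Slc16a1, Hif1a and Rpia added. The 10.7% of all genes belongs to the main fit, and the shares under these other fits are not given here. Whether the added calls exceed a rise over all genes is therefore not shown.

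Other genes of the same pathways were read from lists of related enzymes, transporters and HIF targets. Of 28 other hypoxia genes tested, 17 were higher and 4 lower in recruited cells on day 3, and 7 were higher and 1 lower on day 12. Among all genes, 23.2% were higher and 23.5% lower on day 3, and 12.6% and 14.7% on day 12. Vegfa, the angiogenic growth factor and a classical HIF target, averaged 55.6 CPM in recruited cells and 3.02 CPM in resident cells on day 3, a log2 difference of 4.18 ± 0.61 (SE; adjusted p = 1.29e-05). Ndrg1, another gene induced by low oxygen, was higher by 3.499 ± 0.18 on the average of the days. Epas1, which encodes HIF-2 alpha, went the other way, with a mean of 3.1 CPM in recruited cells and 53.7 CPM in resident cells on day 3. Its log2 difference was -4.11 ± 0.73 (SE; adjusted p = 0.000118), and in recruited cells it was higher by 3.62 ± 0.73 on day 12 than on day 3. Within recruited cells 12 of the 28 were lower and 5 higher on day 12 than on day 3, Ak4, a mitochondrial adenylate kinase, with a log2 change of -4.08 ± 0.45.

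The counts of the other lists on day 3 stand beside the 23.2% higher and 23.5% lower among all genes, and several lie near those shares. Of 25 other enzymes of glycolysis and sugar entry tested, 5 were higher and 10 lower in recruited cells on day 3. Of 11 other genes listed with the pentose phosphate pathway, 2 were higher and 6 lower. Among the lower ones was Idh1, which makes NADPH outside that pathway (log2 -1.35 ± 0.18). H6pd, the NADPH-forming enzyme of the endoplasmic reticulum, was higher by 1.35 ± 0.27. Of 23 other pyruvate and lactate genes, 2 were higher and 8 lower on day 3, with Pcx, which feeds pyruvate into the citric acid cycle, at 3.93 CPM in recruited and 25.5 CPM in resident cells. Of 4 other glucose transporters tested, 2 were higher and 1 lower on day 3, Slc2a6 being higher by 1.53 ± 0.43. Of 20 other glycogen genes, 3 were higher and 7 lower on day 3, and 9 were higher and 1 lower in recruited cells on day 12 than on day 3, where 19.8% and 19.5% of all genes were. Of 14 regulators 4 were higher and 4 lower, among them Acod1, the itaconate-forming enzyme of inflammatory macrophages, higher by 2.43 ± 0.60, and Myc, lower with a log2 difference of -2.04 ± 0.53.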

How the data were processed

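Alveolar macrophages were obtained by lavage and flow sorting, and poly(A) RNA was made into libraries with a modified KAPA Stranded mRNA-Seq kit and sequenced on an Ion Proton, per the labels' protocols. The deposited values are raw read counts per gene. According to the submitters' processing notes, build mm10 was used with HTSeq 0.6.0, STAR 2.4.0a, R 3.1.0 and DESeq2 1.4.5. Strand option and gene annotation: not given in the sources used here. Rows naming no gene entered neither the totals nor the fits, and 6.77% to 26.5% of reads lay outside genes.

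Counts were analysed in R 4.3.3 with edgeR 4.0.16 (quasi-likelihood test, TMM scaling). One fit held all 27 libraries of the 9 groups, with 18 residual degrees of freedom. The filter (filterByExpr, minimum count 10, minimum total 15) left 13599 of 38124 genes, and p-values were adjusted by Benjamini-Hochberg over all of them at 0.05. The fit was tested on simulated data. Alternatives were DESeq2 1.42.0, other scalings, no filter, the compared groups alone, single libraries left out, a replicate block and the number run of the columns. Leaving out the 4 libraries that stood apart was chosen after seeing the data. The members and gene lists were chosen with earlier results of these data known. Genes given with every library are, per step, up to 4 called ones by size of change; other genes are named from lists, up to 2 raised and 2 lowered whose higher group averaged 5 CPM or more. Symbols came from GENCODE M21 (36345 of 38124 identifiers and all 35 members matched) and promoter sequences from RefSeq, GRCm38.p6.

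Whether libraries of 1 group are separate mice is not in the labels, so p-values measure only the spread between these samples, which may be technical. Deviations of recruited and resident libraries with the same day and number correlated in all 12 pairs (r = 0.166 to 0.518), and each matched its own number best in 12 of 12 cases; this pairing comes from the data, not the labels. Intervals on reads cover counting error only.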

Additional observations from a re-analysis of the deposited data

Results flagged for a closer look

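The difference between recruited and resident macrophages itself changed with the day in 12 genes, by the interaction term of edgeR's quasi-likelihood fit over days 3 to 12. The adjusted p was 0.0176 for Hk3, 3.79e-05 for Pfkfb3, 0.00729 for Pfkfb4 and 0.00523 for Aldoa. It was 0.0235 for Tpi1, 0.0151 for Pgk1, 0.0419 for Ldha and 0.00196 for Slc16a3. It was 0.0184 for Egln1, 0.00212 for Bnip3, 0.0432 for Pdk1 and 0.000237 for Gys1. The calls of Ldha, Pdk1, Tpi1, Egln1, Hk3 and Pgk1 were each lost when at least 1 single library was left out. Groups hold 3 libraries each, too few for the test of single outlying samples.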

How the results depend on the processing

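No called gene changed direction under any alternative run. The count of genes called between populations on day 9 was 13 when only the compared groups were fitted, against 23. The resident counts were small and moved most. For day 6 (3 genes) the count was 6 when the column numbers' run entered the fit, 5 with the compared groups alone, 5 with DESeq2 and 7 without the 4 libraries that stood apart. For day 9 (2 genes) it was 5 with the number run, 4 with DESeq2 and 0 with edgeR on the compared groups alone, where 8 genes had an unadjusted p under 0.05. The interaction count (12 genes) was 24 with the number run, 22 with the replicate block by day and number, and 19 without those 4 libraries. The shares of all genes called under these runs are not given here, so the counts cannot be set against a background. Leaving out single libraries gave 1 to 3, 0 to 3 and 0 to 2 resident genes on days 6, 9 and 12, and 8 to 14 for the interaction.

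Single omissions gave 27 to 29 genes for the average, 27 to 31, 23 to 25, 20 to 24 and 12 to 15 between populations on days 3, 6, 9 and 12, and 14 to 17 in resident cells on day 3. They gave 20 to 24, 25 to 28 and 26 to 30 in recruited cells on days 6, 9 and 12, 12 to 17 for any resident day and 26 to 32 for any later recruited day.

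Scaling by library size alone changed the share of higher calls over all genes to 38.6% on day 3 between populations, against 49.7%. In resident cells on days 6, 9 and 12 it gave 37.1%, 27.7% and 64.2%, against 58.8%, 46.2% and 84.2%. In recruited cells on days 6 and 9 it gave 57.4% and 63%, against 47.3% and 50.3%. Among single genes, leaving out 1 library ended 139 calls and made 22, and the replicate block by day and number ended 1 and made 16. The causes were not tested. Ldhb and Egln3 in untreated resident cells rest on 2 and 4 reads, so their changes there are limited by depth. Isoenzyme shares depend on the correction for exon length. Without it, 128 of 162 group shares moved by at least the SD of their group, and 34 did not.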
